A study of Rattus norvegicus with 58 samples.

Results

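Hpd, Tat and Cyp2c11, 3 of the 32545 genes in the deposited rat table, were described in 2 skeletal muscles at 3 ages. The genes were chosen by name for what their reads had shown in these libraries, namely how high they were, how unevenly they were spread and whether they appeared together. All 58 libraries took part in that choice, so every value of the 3 genes is given as a description with no test. The libraries came from male Wistar rats, for which the labels name no allele and no treatment: 10 rats of 8 months (adult), 10 of 18 months (early sarcopenic) and 9 of 24 months (sarcopenic). Poly(A) RNA of the gastrocnemius, a hindlimb muscle taken as prone to wasting with age, and of the triceps brachii, a forelimb muscle taken as spared, was sequenced from each rat, which gave 58 libraries. The study asked which genes change with age in the muscle that wastes and not in the one that is spared. The age groups are different animals, so age and any difference between the cohorts cannot be told apart.

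The 3 genes are best known from the liver. Tat (tyrosine aminotransferase) removes the amino group of tyrosine, the step that opens the breakdown of this amino acid, and its transcription in liver is induced by glucocorticoids. Hpd (4-hydroxyphenylpyruvate dioxygenase) acts on the product of Tat. Cyp2c11 is a cytochrome P450 of the male rat liver that hydroxylates testosterone and is kept high there by the pulsatile growth hormone secretion of males. None of the 3 is a textbook gene of skeletal muscle.

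The libraries held from 11176076 to 72297573 counted reads, with a median of 21249321. The gastrocnemius of rat 5 and of rat 8 (both 8 months) and the triceps brachii of rat 45 (24 months) stood apart in the reads of Tat and Cyp2c11, and the main ratios, correlations and shares of these 2 genes that rest on them are given with and without them. The library of rat 5 held 21740473 reads and that of rat 8 held 19672892, so that neither was unusually deep. Levels are given as CPM after scaling by edgeR's TMM method (TMM CPM), and values over all libraries of a group as pooled CPM, the summed reads divided by the summed library totals and multiplied by 1000000. They are not divided by gene length and are not compared between genes.

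The start regions of the 3 genes are shown because the question is whether they move together. Each is the 250 bases before the gene's start in RefSeq (build GRCr8, + strand), and all 3 genes had an entry. Capitals mark matches, on either strand, to 6 short motifs of factors known in liver or in general transcription. The TATA box was searched as TATAAA. For HNF1, a factor of liver and kidney, the letters were GTTAAT. The letters CAAAGTC stood for HNF4, a nuclear receptor of the liver. FOXA, which opens liver chromatin, was searched as TGTTTAC. For the glucocorticoid receptor the letters were TGTTCT, and C/EBP, which also acts in fat cells, was searched as TTGCNNAA. No match overlapped another.
Hpd, chr12:39041996-39042245: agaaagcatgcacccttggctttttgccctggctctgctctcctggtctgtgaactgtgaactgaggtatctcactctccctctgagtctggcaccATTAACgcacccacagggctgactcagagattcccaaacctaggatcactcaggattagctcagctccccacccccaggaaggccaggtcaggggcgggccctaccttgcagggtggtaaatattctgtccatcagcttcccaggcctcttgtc
Tat, chr19:54856354-54856603: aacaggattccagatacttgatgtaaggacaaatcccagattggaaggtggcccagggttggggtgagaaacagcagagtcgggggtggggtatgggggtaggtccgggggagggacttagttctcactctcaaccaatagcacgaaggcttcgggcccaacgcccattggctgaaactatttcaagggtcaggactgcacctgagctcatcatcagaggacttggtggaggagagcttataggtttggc
Cyp2c11, chr1:246174966-246175215: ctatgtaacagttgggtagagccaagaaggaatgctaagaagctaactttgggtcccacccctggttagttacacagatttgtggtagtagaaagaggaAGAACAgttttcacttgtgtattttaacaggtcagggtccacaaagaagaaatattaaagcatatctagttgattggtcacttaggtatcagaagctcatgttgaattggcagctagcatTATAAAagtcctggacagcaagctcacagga
In the Hpd window the HNF1 letters were found on the opposite strand, beginning 154 bases before the start. In the Cyp2c11 window a TATA box began 31 bases before the start and the letters of the glucocorticoid receptor motif stood on the opposite strand at 151 bases. The Tat window held none of the 6. Of all 33469 RefSeq windows of this length, 6.45% held the HNF1 letters, 12.9% the TATA box and 17.5% the glucocorticoid receptor letters. The C/EBP letters were in 9.22%, the HNF4 letters in 3.95% and the FOXA letters in 3.21% of them. These matches describe the letters only.

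Hpd (ENSRNOG00000001338) was read in every library, with 3338 reads in all and between 2 and 418 per library. In gastrocnemius at 8 months its level ran from 1.19 to 10.3 TMM CPM with a median of 2.41 (mean 3.89 ± 3.07, SD, n = 10 rats). At 18 months it ran from 0.248 to 4.87 with a median of 3.15 (2.79 ± 1.65, SD, n = 10 rats). At 24 months the 9 gastrocnemius libraries lay close together, between 0.920 and 1.77 with a median of 1.19 (1.29 ± 0.317, SD, n = 9 rats). The high Hpd libraries of the adult gastrocnemius thus had no counterpart in the sarcopenic one, yet both age groups overlapped at the low end.

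In triceps brachii the median of Hpd was lowest at 8 months and highest at 24 months. Hpd ran from 0.188 to 4.14 TMM CPM at 8 months with a median of 0.640 (1.40 ± 1.50, SD, n = 10 rats). At 18 months the range was 0.348 to 5.29 with a median of 1.40 (1.87 ± 1.75, SD, n = 10 rats). At 24 months it was 1.10 to 16.1 with a median of 1.83 (4.35 ± 5.47, SD, n = 9 rats). The 24-month values overlapped those of both younger groups, and only rat 42 at 16.1 and rat 41 at 11.3 lay above them. The medians of the 6 groups descended from gastrocnemius at 18 months over gastrocnemius at 8 months, triceps brachii at 24 months, triceps brachii at 18 months and gastrocnemius at 24 months to triceps brachii at 8 months. Each neighbouring pair in this order had overlapping ranges.

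**Figure D1:**
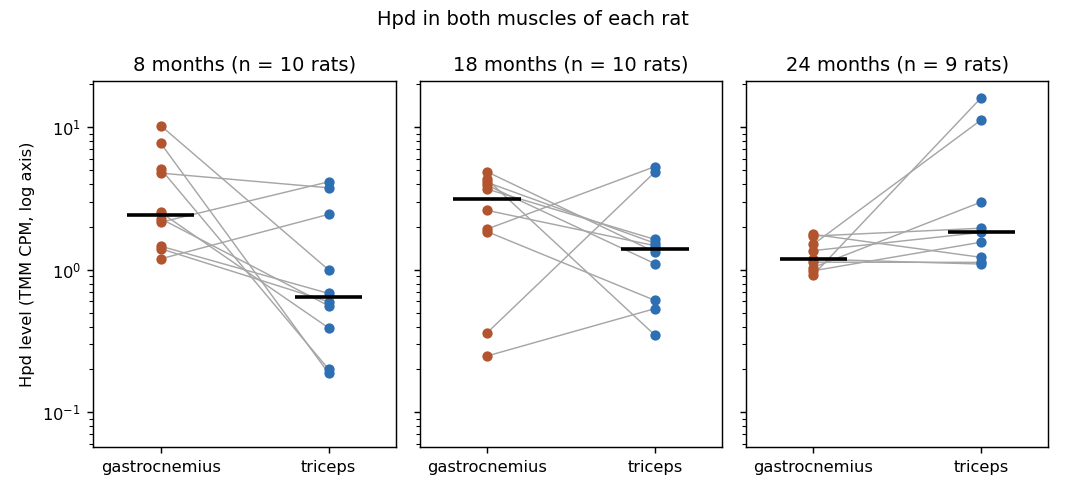
Hpd level in TMM CPM on a log axis, for both muscles at each age, with 1 point per library, a line joining the muscles of a rat and a black bar at the median. Most lines fall from gastrocnemius to triceps brachii at 8 and 18 months, and at 24 months rats 41 and 42 rise to 11.3 and 16.1.

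Within rats, Hpd was higher in gastrocnemius in 8 of 10 rats at 8 months, in 7 of 10 at 18 months and in 3 of 9 at 24 months. On the log2 scale, the widest gap in favour of gastrocnemius was 5.03 in rat 5 at 8 months, with 7.74 TMM CPM in gastrocnemius and 0.188 in triceps brachii. The widest in favour of triceps brachii was that of rat 42 at 24 months, with 0.920 and 16.1 (gastrocnemius minus triceps brachii -4.06). The same animal could therefore hold a library near the top and one near the bottom of the whole series. Over the 29 rats, the log2 levels of both muscles had a Pearson r of -0.34 (Spearman rho -0.36), and r was -0.50 without the 2 rats whose gastrocnemius was farthest from the median. Within the age groups r was -0.27 at 8, -0.16 at 18 and -0.23 at 24 months. These are descriptions over 10, 10 and 9 rats in which the muscles share an animal. A rat with much Hpd in one muscle was not, as a rule, a rat with much in the other.

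In a fit with the rat as a block, the difference of gastrocnemius minus triceps brachii for Hpd was 1.54 (SE 0.58) on the log2 scale at 8 months, 0.74 (SE 0.57) at 18 months and -1.07 (SE 0.58) at 24 months. The same fit gave 2.61 (SE 0.82) for the change from 8 to 24 months in triceps brachii minus that in gastrocnemius. A separate fit, with 1 mean per muscle and age and no block, gave the changes within each muscle, so their difference is not exactly this value. From 8 to 24 months, its log2 values for Hpd were -1.60 (SE 0.54) in gastrocnemius and 1.59 (SE 0.53) in triceps brachii. From 18 to 24 months they were -1.13 (SE 0.54) in gastrocnemius and 1.23 (SE 0.53) in triceps brachii. From 8 to 18 months they were -0.47 (SE 0.50) and 0.35 (SE 0.54). The median over all 14947 genes kept was within 0.03 of 0 in each of these comparisons. Rat 42 carried much of the higher level in triceps brachii: without it the log2 value was 0.98 from 8 to 24 months and 0.61 from 18 to 24 months.

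At 18 months the Hpd levels of both muscles overlapped over nearly their whole range, and rats 11, 14 and 17 were higher in triceps brachii. Cyp2c11 had 4 reads in gastrocnemius and 8 in triceps brachii at this age, a ratio of reads per total of 0.463 with a 95% Clopper-Pearson interval of 0.102 to 1.73. Tat had no read in either muscle.

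Tat (ENSRNOG00000016348) had 47 reads in the whole series. The gastrocnemius of rat 5 held 24 of them, or 51.1% with an exact 95% interval of 36.1 to 65.9%, the gastrocnemius of rat 8 held 10 and the triceps brachii of rat 45 held 5. The other 8 reads came singly or in a pair from 7 libraries, and 48 libraries had no read. On the scale of TMM CPM, rat 5 stood at 1.21, rat 8 at 0.502 and rat 45 at 0.225, and no other library exceeded 0.0575. Binomial intervals and limits for a count of 0 cover counting error only here and below, as reads copied from 1 molecule were not separated.

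By group, Tat had 36 reads in gastrocnemius at 8 months (pooled CPM 0.171) and 0 in triceps brachii of the same rats, which allows a pooled CPM of up to 0.0137. Adult gastrocnemius stood 12.5-fold above that limit of 3 reads over the adult triceps brachii group. This fold takes the 36 reads as exact, so it is not a confidence limit. Without rat 5 it was 4.41-fold on 12 reads, and without rats 5 and 8 there were 2 reads against 0 and no fold can be given. At 18 months Tat had 0 reads in 223886269 reads of gastrocnemius and 0 in 207431938 of triceps brachii, which allows a pooled CPM of up to 0.0134 and 0.0145. At 24 months it had 3 reads in gastrocnemius and 8 in triceps brachii, a ratio of 0.305 (95% interval 0.0522 to 1.27), and without rat 45 there were 3 reads in each. In adult gastrocnemius it stood 14.4-fold above sarcopenic gastrocnemius (95% interval 4.56 to 73.3), and the ratio fell to 5.37 (1.45 to 29.7) without rat 5 and to 1.00 (0.0835 to 8.73) without rats 5 and 8. The age pattern of Tat was therefore that of 2 adult libraries and 1 sarcopenic one.

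Cyp2c11 (ENSRNOG00000052810) had 49 reads, of which the gastrocnemius of rat 5 held 21, or 42.9% (exact 95% interval 28.8 to 57.8%). No other library had more than 3, and 41 libraries had none. Rat 8 and rat 45 had 3 reads each in the libraries named above, which corresponds to 0.151 and 0.135 TMM CPM against 1.06 in rat 5. The triceps brachii of rats 12 and 13 at 18 months also had 3 reads each, with no read of Tat. The highest level outside the 3 libraries was 0.255 TMM CPM, so that Cyp2c11 was a little more widely scattered than Tat. Its reads are uncertain as to the gene, since the Cyp2c family of the rat holds close copies and reads that fit more than 1 place cannot be assigned.

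By group, Cyp2c11 had 28 reads in adult gastrocnemius (pooled CPM 0.133) and 0 in adult triceps brachii, 9.72-fold above the limit of 3 reads over the group. It was 2.57-fold without rat 5, on 7 reads, and 1.44-fold without rats 5 and 8, on 4 reads. Such folds against a limit take the reads above it as exact, and 4 reads against 0 are too few to show a difference. Against gastrocnemius at 18 months the ratio was 7.47 (95% interval 2.61 to 29.3) with rat 5, 2.08 (0.529 to 9.70) without it and 1.33 (0.247 to 7.13) without rats 5 and 8. Against gastrocnemius at 24 months, which had 2 reads, it was 16.8 (4.25 to 146) with rat 5, 4.70 (0.895 to 46.4) without it and 3.00 (0.430 to 33.1) without rats 5 and 8. In triceps brachii Cyp2c11 had 0 reads at 8 months, 8 at 18 months and 7 at 24 months, which is 2.81-fold and 2.48-fold above the adult limit. Leaving out the triceps brachii of rat 45 reduced the second fold to 1.57, again on 4 reads against 0.

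**Figure D2:**
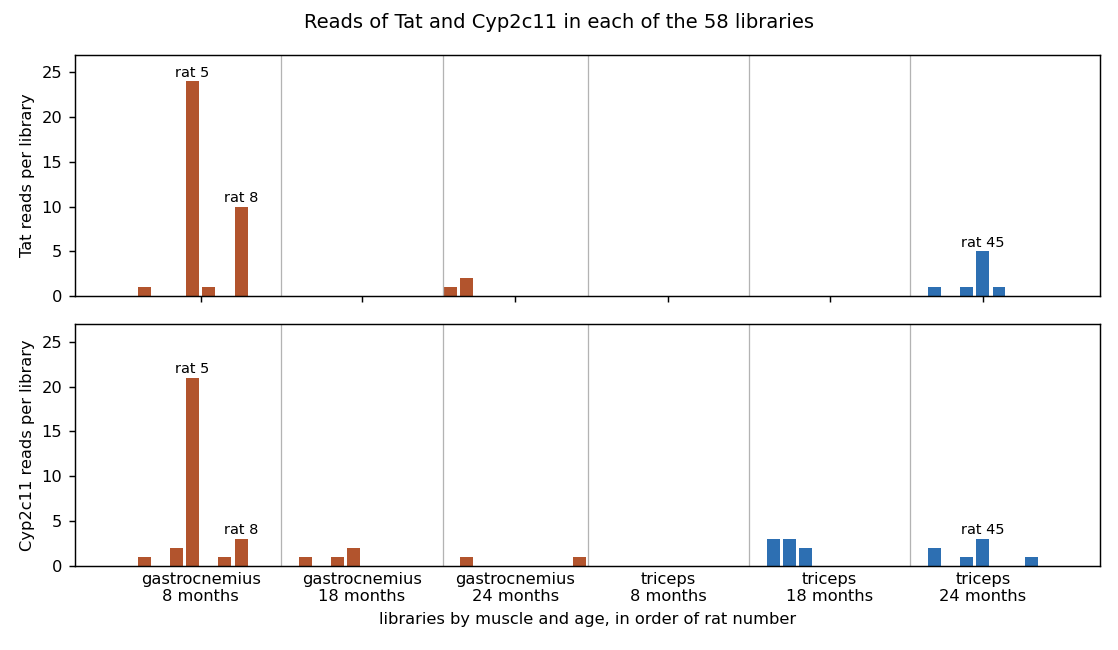
Reads of Tat (top) and Cyp2c11 (bottom) in each of the 58 libraries, 1 bar per library, ordered by muscle, age and rat. Rat 5 stands out in both panels with 24 and 21 reads, rats 8 and 45 are next for Tat with 10 and 5, and adult triceps brachii has no read of either gene.

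All 3 genes passed the low-count filter of 20 reads in at least 1 library, but Tat and Cyp2c11 passed it through the gastrocnemius of rat 5 alone. Without rat 5 both dropped out and 14934 genes were kept. The 5 highest libraries held 91.6% of the summed TMM CPM of Tat, 69.9% of that of Cyp2c11 and 33.7% of that of Hpd. An even spread would give 8.62%, and the median over the 14947 genes was 12.5%. As many as 397 genes (2.66%) were as uneven as Hpd or more so, while only 37 (0.248%) reached the share of Cyp2c11 and 12 (0.0803%) that of Tat, the genes themselves included. With the gastrocnemius of rats 5 and 8 and the triceps brachii of rat 45 left out, the 5 highest of the other 55 libraries held 79.6% of the level of Tat and 60.5% of that of Cyp2c11, where an even spread gives 9.09%. A gene with as few reads as Tat (47) or Cyp2c11 (49) was kept only where 1 library held 20 or more of them. The filter thus built high shares over the 58 libraries into such genes, and their rank among the 14947 says little. All these shares helped choose the genes and are not tested.

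Tat and Cyp2c11 shared their highest libraries, and Hpd was read in all 58. Both had at least 1 read in 7 libraries, Tat alone in 3, Cyp2c11 alone in 10 and neither in 38. At 3 reads or more, both were present in 3 libraries, those of rats 5, 8 and 45, and Cyp2c11 alone in 2. The log2 levels (with 0.05 added to the TMM CPM) of Tat and Cyp2c11 had r = 0.70 over the 58 libraries and 0.68 within groups, that is, after each group mean was removed. Without the gastrocnemius of rat 5 it was 0.47, without those of rats 5 and 8 it was 0.36, and without the triceps brachii of rat 45 as well it was 0.20. Between Hpd and Tat r was 0.21, and between Hpd and Cyp2c11 0.14, with 0.06 and -0.02 within groups. The points share the library's depth and scaling, and most are at 0 reads for Tat and Cyp2c11.

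Tat made up 53.3% of the reads of Tat and Cyp2c11 together in rat 5 (95% interval 37.9 to 68.3%), 76.9% in rat 8 (46.2 to 95.0%) and 62.5% in rat 45 (24.5 to 91.5%). The last of these rests on 5 reads of Tat and 3 of Cyp2c11. Over the other 55 libraries Tat made up 26.7% of 30 reads (12.3 to 45.9%). The 3 libraries were set apart largely by their reads of Tat. A higher share of Tat in them than elsewhere is therefore partly built in. Hpd ranked the gastrocnemius of rat 5 as 4th of 58, with 153 reads. It ranked the gastrocnemius of rat 8 as 34th, with 28 reads, and the triceps brachii of rat 45 as 41st, with 25 reads. The 3 libraries together held 86.5% of the summed level of Tat, 54.2% of that of Cyp2c11 and 6.83% of that of Hpd, where an even spread gives 5.17%. Conversely, the 10 libraries with the most Hpd, 6 of gastrocnemius and 4 of triceps brachii, held 2 reads of Tat and 3 of Cyp2c11 once rat 5 was set aside. Of the 3 libraries that stood apart in Tat and Cyp2c11, Hpd was thus high in that of rat 5 only. The other 55 libraries held 8 reads of Tat and 22 of Cyp2c11, too few to tell whether Hpd followed them there. The common label of liver-type genes describes their known expression, and a pattern shared by all 3 was not seen.

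Other genes too had a large share of their level in the library of rat 5. Among the 14947 genes, 24 had at least 40% of their summed TMM CPM in a single library, and for 13 of them this was the gastrocnemius of rat 5. The next library, the gastrocnemius of rat 13 at 18 months, had 5 such genes. Tat and Cyp2c11 were the only ones of the 13 with a symbol at hand. The 11 others had between 39 and 2625 reads, with 40.5% to 74.2% of their level in rat 5, 4.03% to 14.7% in the gastrocnemius of rat 8 and 6.62% to 27.2% in the triceps brachii of rat 45. For all 11 the triceps brachii of rat 45 was among the 3 highest libraries, and for 9 the gastrocnemius of rat 8 was as well. The most abundant, ENSRNOG00000002911, had 1031 reads in rat 5, 343 in rat 8, 637 in rat 45 and 614 in the other 55 libraries together. This threshold of 40% was chosen after the values were seen. The filter of 20 reads in a library also shaped the set. ENSRNOG00000001809 had 20 of its 39 reads in rat 5 and ENSRNOG00000046540 had 40 of its 54. Both were thus kept through that library alone, like Tat and Cyp2c11. For genes with so few reads a large share in a single library was partly built in, and the count of 13 is no measure of how unusual rat 5 was. ENSRNOG00000002911 passed the filter in rats 8 and 45 as well.

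**Figure D3:**
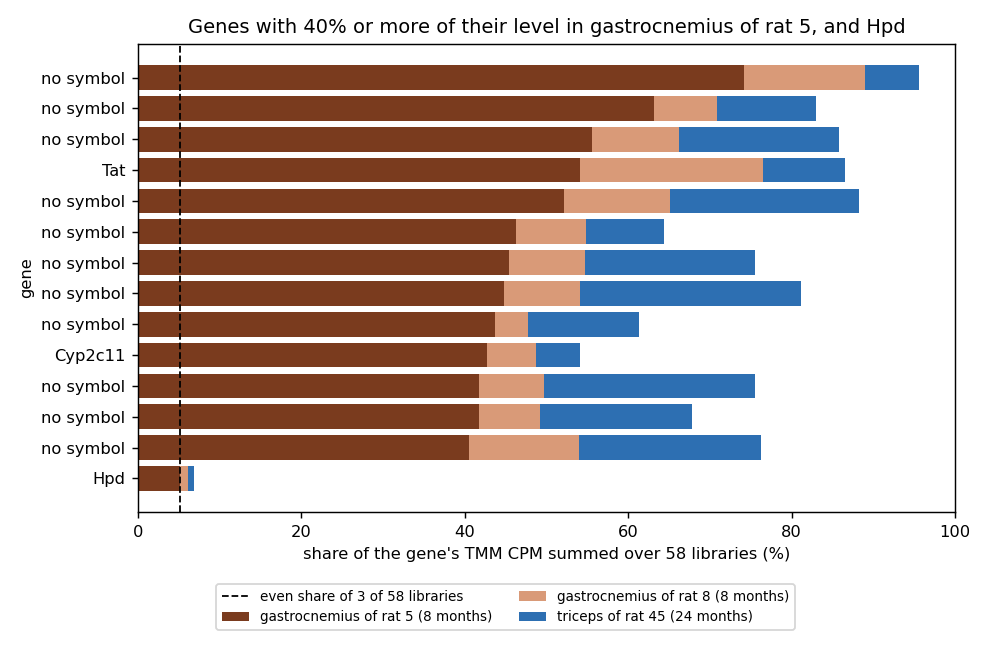
Share of each gene's TMM CPM, summed over 58 libraries, that lay in the gastrocnemius of rats 5 and 8 and in the triceps brachii of rat 45, for the 13 genes with at least 40% in rat 5 and for Hpd. Tat reaches 86.5% and Cyp2c11 54.2%, whereas Hpd at 6.83% lies near the dashed line of an even share (5.17%).

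The genes most like Tat and Cyp2c11, taken 1 gene at a time over the 58 libraries, were of the same set. The closest to Tat was ENSRNOG00000001809 (r = 0.91). Among genes with a symbol the closest to both was Hp, which encodes haptoglobin, a haemoglobin-binding plasma protein that the liver secretes. Hp had r = 0.72 with Tat and 0.65 with Cyp2c11. These values rested on the 3 libraries: over the other 55, Hp had r = 0.02 with Tat and 0.27 with Cyp2c11, and ENSRNOG00000001809 had 0.41 with Tat. The highest level of Hp was in the gastrocnemius of rat 5 (9.76 TMM CPM), followed by the triceps brachii of rat 45 (7.35) and the gastrocnemius of rat 8 (4.57), and the other 55 libraries stayed at or under 3.30. Hp was present in every library, with group medians between 1.87 and 2.16. Its r with Hpd was 0.22.

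The lists of liver genes were only in part legible, since names came only with the 2163 genes of the study's table of differing genes, a choice made on these samples. The secreted liver proteins Hp, Lrg1 and Inhbc (3 of 24 in the list) summed to 24.9 TMM CPM in the gastrocnemius of rat 5, the highest of its group (15.0 to 24.9). In the triceps brachii of rat 45 they summed to 36.9, also the highest of its group (17.2 to 36.9), and in the gastrocnemius of rat 8 to 18.0, under the group median of 18.9. The 3 did not move as a set. Counted from the highest of 58 libraries, Hp ranked 1st in rat 5, but Lrg1 26th and Inhbc 49th. In rat 8 they ranked 3rd, 44th and 27th, and in rat 45 2nd, 2nd and 17th. Of 20 other genes enriched in liver, 1 had its highest level in rat 5, Pfkfb1, an enzyme that sets fructose 2,6-bisphosphate and that muscle also uses. The median rank of the 20 among the 58 libraries, counted from the highest level, was 11.5 in rat 5, 34 in rat 8 and 38 in rat 45. In the upper 29 libraries stood 14 of the 20 in rat 5, 9 in rat 8 and 7 in rat 45. Only Gjb1, a gap junction protein, and Ass1, of the urea cycle, were among the 10 highest in all 3 libraries, whereas Slc51a ranked 49th, 40th and 44th and Fgfr4 46th, 53rd and 24th. None of the 9 fast fibre genes, 5 glucocorticoid-responsive genes, 5 kidney tubule genes, 2 red blood cell genes or 3 fat cell genes was highest in rat 5. Yet 3 fat cell genes were in the upper 29 in rat 5, 3 in rat 8 and 2 in rat 45 (median ranks 15, 9 and 20). In the same order, the red blood cell genes had 2, 1 and 0 there, and the fast fibre genes 5, 6 and 4. Glucocorticoid-responsive genes had 3 in each library, and kidney tubule genes 0, 1 and 2. High ranks in these libraries were thus not limited to liver genes. The summed fast fibre genes were 49742 TMM CPM in rat 5, 46354 in rat 8 and 46985 in rat 45, inside the ranges of their groups (30989 to 64870 in adult gastrocnemius and 17060 to 60725 in sarcopenic triceps brachii). Whether RNA of another tissue or a change in the muscle gave the reads of Tat and Cyp2c11 was not tested.

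Hpd kept other company. Ranked by Hpd alone, a choice made after the data were seen, the nearest genes with a symbol were Bdh1 (r = 0.84), which interconverts ketone bodies, Lgi1 (0.80), a secreted protein best known from the brain, Fgf1 (0.76), a growth factor, Lpl (0.76), the lipase that frees fatty acids from circulating triglycerides, and Large (0.76), which adds sugars to dystroglycan. After removal of the group means these values were 0.82, 0.78, 0.76, 0.76 and 0.74. In all, 332 genes (2.22%) had r above 0.5 with Hpd, against 35 (0.234%) with Tat and 22 (0.147%) with Cyp2c11. Over the 55 libraries without those of rats 5, 8 and 45 named above, the counts for Tat and Cyp2c11 were 4 and 22. Bdh1 and Hpd were positively correlated in each of the 6 groups, with r between 0.23 in gastrocnemius at 24 months and 0.93 in triceps brachii at 8 months. Lpl and Hpd had r between 0.49 and 0.92 in the 6 groups.

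Of the 10 libraries with the most Hpd, 7 lay above the median of their group for Bdh1 and 7 for Lpl, and of the 10 with the least Hpd, 8 lay below it for Bdh1 and 9 for Lpl. Bdh1 and Lpl were picked for their r with Hpd in these same libraries, so these counts largely restate that choice. The triceps brachii of rat 42 held the most Hpd (16.1 TMM CPM), with 28.7 of Bdh1 and 693 of Lpl. The gastrocnemius of rat 2 at 8 months (Hpd 10.3) had 10.8 of Bdh1 and 604 of Lpl. At the other end, the triceps brachii of rat 5 (Hpd 0.188) had 0.470 of Bdh1 and 164 of Lpl. The gastrocnemius of rat 5, 4th in Hpd, was an exception, with 2.53 of Bdh1 and 355 of Lpl against group medians of 2.96 and 392.

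Fast fibre genes, among them Actn3 of the fast Z-disc, the fast calcium pump Atp2a1 and the glycogen phosphorylase Pygm, ran the other way. The median r of the 9 genes with Hpd was -0.23 over all libraries and -0.42 within groups. Tcap was an exception, with -0.006 and 0.058. For their summed level r was -0.25 and -0.47. It was -0.91 in triceps brachii at 24 months (n = 9) and -0.67 in gastrocnemius at 8 months (n = 10), but -0.05 in triceps brachii at 8 months and -0.06 in gastrocnemius at 24 months. The 3 libraries with the most Hpd were also low in fast fibre genes: rat 42 had the lowest triceps brachii of its age (17060 TMM CPM), rat 41 the 2nd lowest (32743) and rat 2 the lowest adult gastrocnemius (30989). Among the rest of the 10 highest in Hpd, those of rats 11, 10, 16, 17 and 1 ranked 3rd, 2nd, 3rd, 1st and 4th from the lowest of 10. The gastrocnemius of rat 5, 4th in Hpd, and that of rat 19, 10th, each ranked 8th of 10. In gastrocnemius at 24 months fast fibre genes were low (7738 to 29144) with Hpd also low (0.920 to 1.77). In RNA of whole muscle, fewer fibres of a kind and less RNA per fibre cannot be told apart, and the part that fibre makeup plays in the Hpd values was not tested.

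**Figure D4:**
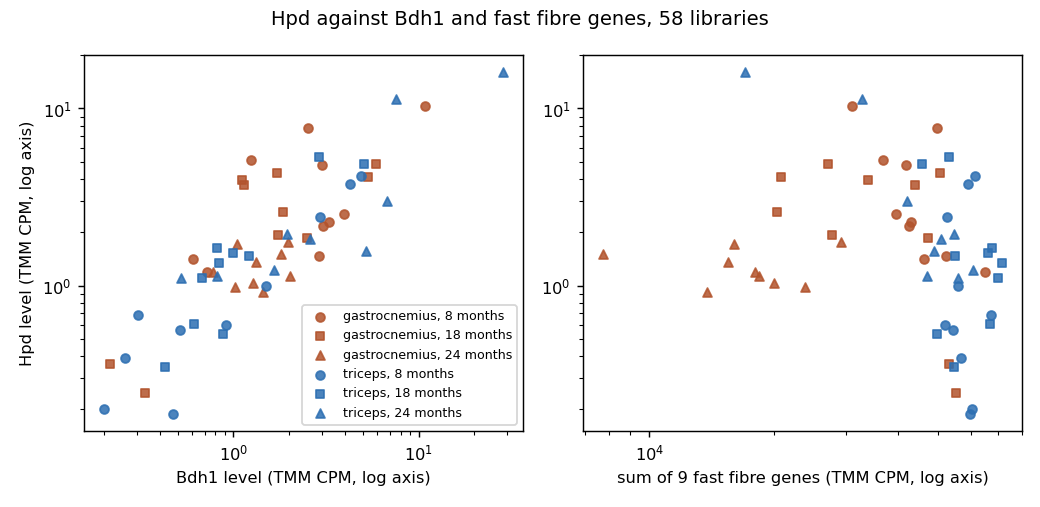
Hpd level against Bdh1 (left) and against the summed level of 9 fast fibre genes (right), in TMM CPM on log axes, 1 point per library, with colour for muscle and shape for age. Hpd and Bdh1 climb together over the whole range (r = 0.84 over 58 libraries), and the highest Hpd points at right, of rats 42, 41 and 2, lie at low fast fibre levels for their groups.

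The fat cell genes Aqp7 (a glycerol channel, r = 0.62 with Hpd) and Lipe (hormone-sensitive lipase, 0.50) also followed Hpd in part, while Plin4 (0.17) did so less. Of the liver-enriched genes, Gcgr, the glucagon receptor, had r = 0.63, Sec14l4 0.55 and Acox2, an oxidase of bile acid synthesis, 0.52, but the median of the 20 was 0.10. Got1 and Got2, the aspartate aminotransferases of the tyrosine breakdown list, had 0.40 and 0.33. The 5 glucocorticoid-responsive genes lay between -0.18 for Glul and 0.13 for Zbtb16. Ranked by the lowest of the 3 correlations, no gene followed all 3 closely: the highest such value was 0.32, for a gene without a symbol, and among named genes Tpsab1 (a mast cell tryptase, 0.27), Ushbp1 (0.26), Gba2 (0.24), Cpxm2 (0.24), Tmie (0.23), Apba2 (0.23), Lipe (0.22), Hp (0.22), Fam107a (0.21) and Kank3 (0.21) came next.

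At 18 months the muscles were compared over all genes by edgeR's quasi-likelihood test, and the related lists are read from it. Across the 14947 genes 18.0% were called at an adjusted p under 0.05, 9.53% higher in gastrocnemius and 8.48% higher in triceps brachii, with a median log2 difference of 0.02. The listed genes have symbols only through a table made on these samples, so their calls are not independent evidence. In the tyrosine breakdown list Got1 (0.09) and Got2 (0.10) did not pass. Of the 20 liver-enriched genes 3 were higher in gastrocnemius (Slc51a 3.15, Acmsd 0.94 and Asl 0.27), 2 were higher in triceps brachii (Acsm5 -0.99 and Ehhadh -0.45) and 15 did not pass, with a median of 0.02. Cyp4f17 was higher in gastrocnemius (0.81) and Inhbc higher in triceps brachii (-0.82), while Hp (0.02) and Lrg1 (-0.10) did not pass. Of the 5 glucocorticoid-responsive genes 3 were higher in triceps brachii, Glul (-0.94), Fkbp5 (-0.46) and Tsc22d3 (-0.41), with a list median of -0.41. Of the 5 kidney tubule genes, Slc12a3 (3.62) and Hsd11b2 (1.85) were higher in gastrocnemius. All 9 fast fibre genes were higher in triceps brachii, between -1.10 for Actn3 and -0.48 for Eno3, with a median of -0.67. Neither red blood cell gene passed, and of the 3 fat cell genes Plin4 was higher in triceps brachii (-0.41).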

How the data were processed

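Poly(A) RNA of gastrocnemius and triceps brachii from 29 male rats was made into 58 TruSeq libraries, a kit that does not mark the strand. Per the labels and the study's methods, the authors aligned paired reads to Rnor_6.0 with STAR 2.3.0e, removed reads of low mapping score and ran HTSeq in union mode on what was left, gene by gene. The deposited values are these counts, as whole reads for 32545 Ensembl genes. The annotation release is not given in the sources used here, and antisense or overlapping genes cannot be separated.

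The software was edgeR 4.0.16, DESeq2 1.42.0 and limma 3.58.1 under R 4.3.3. A gene was kept where 1 library or more had 20 reads or more (14947 genes), and TMM factors were applied. Muscles were compared by edgeR's quasi-likelihood test with the rat as a block and 1 muscle effect per age, adjusted by Benjamini and Hochberg and called under 0.05. The test had been planned for the 3 genes at 18 months as libraries outside their choice. Since the choice and the study's model of 2 muscles and 3 ages used all libraries, no p is given for them, and calls are given for other listed genes only. Age changes came from a fit of 6 group means. SE is the log2 change divided by the square root of F. Correlations were taken on log2(TMM CPM + 0.05). The pipeline was tested on simulated data: at 18 months, 196 of 200 genes changed by 3-fold were recovered, with 7 false calls among 14947 genes. The changed genes were drawn from those with a mean of 20 reads or more, and no difference between rats was simulated. Recovery of genes with few reads, or under differences between rats, was therefore not checked.

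The labels give the animal of each library, which pairs the muscles. With group means taken out, the muscles of a rat correlated over 12561 genes with a median r of 0.258 (-0.208 to 0.546), and r was over 0.1 in 25 of 29 rats. In the test of the muscles the rat was a block, so differences in level between rats were taken out. The p-values set the muscle difference against its variation from rat to rat, estimated from the rats of all ages together.

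The 3 genes and the lists were chosen with earlier results of these data known. Genes were named by rule: the 3 genes in full, the 10 with a symbol and at most 2 without one that had the highest value of the lowest correlation with the 3, and list members with a symbol. Neighbours of each gene alone, the 40% threshold, the summed fast fibre level the ranks of listed genes and the values without rats 5, 8 and 45 were added after the data were seen. Symbols came from the study's table of differing genes, where 357 of 2163 identifiers carried 1 zero too many from page reading and were padded to the usual length. Start sequences came from RefSeq (GRCr8). The alternatives tried were no block by rat, a block by label number, RLE factors, library totals, filterByExpr, no filter, only the libraries of 18 months, voom in limma with an estimated within-rat correlation (0.176), DESeq2, another pseudocount, Spearman's rho and leaving out each rat.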

Additional observations from a re-analysis of the deposited data

Results flagged for a closer look

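For the 3 genes, in 14 groups of 9 or 10 libraries with any read, the highest and the lowest value were compared with the rest of their group by Dixon's criterion, and 3 values stood apart. Uneven spread helped choose these genes and most libraries of these groups had no read of Tat or Cyp2c11, so this is a description, and the 1 in 20 groups that chance would set apart is no yardstick for it. Tat in the gastrocnemius of rat 5 (8 months) was at 1.21 TMM CPM with 24 reads, and the next value of its group was 0.502. Cyp2c11 in the same library was at 1.06 TMM CPM with 21 reads, and the next was 0.151. Tat in the triceps brachii of rat 45 (24 months) was at 0.225 TMM CPM with 5 reads, and the next was 0.0575. Hpd was not set apart in any of its 6 groups, the triceps brachii of rat 42 included. The criterion sets the extreme value against its neighbour, so 2 high values in 1 group can hide each other. In triceps brachii at 24 months rat 42 stood at 16.1 TMM CPM, rat 41 at 11.3 and rat 44, the next, at 2.99. All 3 values lie in libraries that also held the most or the second most reads of several other genes, as given above.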

How the results depend on the processing

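Of 403 values recomputed under other settings, 388 counted as unmoved and 15 as moved. Unmoved meant within 1 SE or interval of the reported value, or on the same side of the threshold. For the number of genes called a wider limit, set as a ratio, was used, so 2019 and 2057 against 2692 counted as unmoved. Many of the 403 were Hpd refits without a rat outside the comparison, which could hardly move. The count of 388 is therefore no measure of stability. None of the 403 turned the sign of the 18-month difference of Hpd or Cyp2c11. At 18 months 2692 genes differed between the muscles, and between 2019 and 3186 with each rat of 18 months left out. With only the 20 libraries of 18 months there were 1514, a fit with fewer samples. Without the replicate block by rat there were 2057. The Hpd difference at 18 months was between 0.45 and 1.15 with each rat of that age left out and 0.59 without the replicate block. The fitted difference of Cyp2c11 at 18 months was -1.03 on 12 reads, with no firm size. It was -1.59 to -0.23 with each rat of that age left out, and filterByExpr dropped the gene.

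The Hpd changes with each rat left out ran, in gastrocnemius, from -0.59 to -0.18 (8 to 18 months), -1.70 to -1.31 (8 to 24) and -1.28 to -1.01 (18 to 24), and in triceps brachii from 0.05 to 0.78, 0.98 to 2.01 and 0.61 to 1.53. Muscle differences ran from 1.26 to 1.91 at 8 months and -1.27 to -0.70 at 24 months, and the change in triceps brachii minus that in gastrocnemius from 0.38 to 1.17 (8 to 18) and 2.24 to 2.99 (8 to 24). A replicate block by label number, which pairs rats of different ages by number alone, gave -1.37 in gastrocnemius and 1.27 in triceps brachii from 8 to 24 months.

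The correlation of Tat with Cyp2c11 was 0.84 with a pseudocount of 0.5, 0.46 as Spearman's rho, 0.27 without the 5 libraries of the highest summed rank, 0.47 without the gastrocnemius of rat 5 and 0.36 without those of rats 5 and 8. Without the 5 libraries, Hpd had -0.042 with Tat and -0.14 with Cyp2c11, and without rat 5 Hpd and Cyp2c11 had 0.0013. Tat in adult gastrocnemius fell from a pooled CPM of 0.171 to 0.0638 without rat 5 and 0.0119 without rats 5 and 8, and Cyp2c11 from 0.133 to 0.0372 and 0.0237. With 47 and 49 reads in all, counting error alone limits every statement on Tat and Cyp2c11 outside 3 libraries.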
